A study of Rattus norvegicus with 12 samples.

Results

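The genes of calcium release and reuptake in the rat pubocaudalis, a muscle of the pelvic floor, were followed across 4 groups of rats after simulated birth injury (SBI). The set was chosen by name as 10 genes: Cacna1s, Ryr1 and Jph1 for release, Casq1 and Casq2 for storage, Atp2a1, Atp2a2, Sln and Pln for reuptake, and Pvalb for buffering in the cytosol. Of these 10, 9 had a row among the 30206 genes of the counts table and all 9 were among the 14599 genes with enough counts to be tested. Pln was not analysed here.

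In a skeletal muscle fiber an action potential spreads along the transverse tubules, where the voltage-sensing calcium channel Cacna1s couples mechanically to the ryanodine receptor Ryr1 and opens it, and junctophilin 1 (Jph1) holds the tubule and the sarcoplasmic reticulum together at that contact. Calcium held in the reticulum by calsequestrin (Casq1 in fast and slow fibers, Casq2 mainly in slow fibers and heart) enters the cytosol, and parvalbumin (Pvalb) binds part of it in fast fibers. The SERCA pumps then return it, Atp2a1 (SERCA1) in fast fibers and Atp2a2 (SERCA2) in slow fibers and heart, under the restraint of the small membrane proteins sarcolipin (Sln) and phospholamban (Pln).

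All animals were 3-month-old female Sprague-Dawley rats that had a vaginal balloon distention in late pregnancy. After birth the pups were removed (1wk SBI and 3wk SBI, non-lactating) or left with the dam (1wk SBI + Lac and 3wk SBI + Lac, lactating), and muscle was taken 1 or 3 weeks after SBI, so that every group was injured and an uninjured muscle was not part of these libraries. Each group had 3 libraries, each made from the pooled RNA of 2 rats, and every n below counts pools. The labels name different rats for each pool, whereas the paper calls the pools technical replicates. The p-values measure only the spread between these pools. By the labels that spread includes differences between rats, and part of it may be technical.

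Total counts per library ran from 30862144 to 51662983 at 1 week and from 10082734 to 75634391 at 3 weeks. Values are given as normalized CPM, counts relative to library size scaled by TMM, a method that sets the bulk of genes equal between libraries, and since no transcript lengths were used the levels of different genes are not compared. Whole counts were deposited for 1 week and estimated counts with decimals for 3 weeks, so in comparisons of 3 weeks with 1 week the time and the counting cannot be told apart. The muscle label was checked against markers. The 9 pan-fiber muscle genes, which all fiber types use (Acta1, Ckm, Ttn, Neb and others) summed to between 65388 and 151050 normalized CPM per library, whereas the heart genes Nppa, Nppb, Tnni3 and Ryr2 each stayed at or under 0.475. The other heart genes of that list, Tnnt2 and Myh6, ran from 11.6 to 90.1 and from 18.6 to 91.0. Milk genes of the mammary epithelium were at 0 in the 1wk SBI pools and summed to at most 36.8 in those of 3wk SBI + Lac. These are bulk samples, in which fewer cells of a type and less RNA per cell cannot be told apart.

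The promoters of the genes whose levels moved most closely together (Atp2a1, Cacna1s and Ryr1) and of the slow pump isoform Atp2a2 are shown to set the 4 side by side. Each run is the 200 bases before the RefSeq start in the GRCr8 assembly, written along the strand of the gene, 5′ to 3′. Capitals mark the E-box CANNTG, the element bound by MyoD-family factors, and the TATA box TATAAA.
Atp2a1, chr1:190475411-190475610 (−): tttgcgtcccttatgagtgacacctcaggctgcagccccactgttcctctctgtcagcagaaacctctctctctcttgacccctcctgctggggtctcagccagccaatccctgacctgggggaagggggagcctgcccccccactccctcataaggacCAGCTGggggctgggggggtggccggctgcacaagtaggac
Cacna1s, chr13:50045468-50045667 (+): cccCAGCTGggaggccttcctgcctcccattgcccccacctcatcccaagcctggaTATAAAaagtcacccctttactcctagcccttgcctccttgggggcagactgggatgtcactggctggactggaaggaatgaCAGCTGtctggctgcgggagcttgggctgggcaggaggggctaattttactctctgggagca
Ryr1, chr1:93551306-93551505 (−): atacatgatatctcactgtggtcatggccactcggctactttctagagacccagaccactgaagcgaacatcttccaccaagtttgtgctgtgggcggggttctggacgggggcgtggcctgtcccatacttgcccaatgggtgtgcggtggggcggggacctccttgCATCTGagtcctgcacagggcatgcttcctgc
Atp2a2, chr12:39733319-39733518 (+): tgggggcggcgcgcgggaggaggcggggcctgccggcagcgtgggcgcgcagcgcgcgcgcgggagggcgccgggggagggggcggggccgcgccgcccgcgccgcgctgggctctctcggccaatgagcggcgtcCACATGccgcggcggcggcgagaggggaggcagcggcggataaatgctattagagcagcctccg

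Promoters were found for 8 of the 10 genes, and each of the 8 held an E-box, which reads as CANNTG on both strands, within the 250 bases before the start, as did 65.5% of the 33469 rat promoters of the same table. The E-box of Atp2a1 lay at -41 to -36 from the start and read CAGCTG, and both E-boxes of Cacna1s, at -197 to -192 and at -62 to -57, read the same. That of Ryr1 read CATCTG, at -32 to -27, and that of Atp2a2 read CACATG, at -64 to -59. A CAGCTG was also found in Casq1, whose promoter is not shown, at -222 to -217. The share of all promoters with CAGCTG was not counted. TATAAA was found in Cacna1s, at -144 to -139, against 12.9% of all promoters with it anywhere in the 250 bases. The MEF2 pattern CTANNNNTAG was found in none of the 8, against 3.41% of all. The motifs did not overlap one another. GC content was 80.5% in the stretch shown of Atp2a2 and between 58.5% and 63.5% in the other 3. These are matches of letters only.

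The first question was whether lactation changed these genes 1 week after SBI. Cacna1s, Ryr1, Jph1, Atp2a1 and Atp2a2 were each higher in all 3 lactating pools than in any non-lactating pool, by fitted folds of 1.36 to 1.60 with TMM scaling, although scaling to other muscle genes took Ryr1, Jph1 and Atp2a2 below 0. Casq1, Casq2, Pvalb and Sln overlapped between the groups. None of the 9 passed both cutoffs (0.05 on the adjusted p, and 1 on the size of the log2 fold change) in edgeR's quasi-likelihood test, where 0.253% of the 14599 genes did. An unadjusted p under 0.05 was found for 5 of the 9 and for 2762 of the 14599 genes. None of the 9 passed the adjusted p alone, against 0.569% of all genes. Leaving out 1 library changed that count: 4 genes passed the adjusted p alone without 1wk SBI replicate 3 (Cacna1s, Atp2a1, Ryr1 and Jph1, adjusted p from 0.0168 to 0.0298, edgeR) and 2 without 3wk SBI replicate 3 (Cacna1s and Jph1, adjusted p = 0.0321 and 0.0412). Calls over all genes rose as well. With both cutoffs they went from 13 higher and 24 lower to 64 and 171 of 14803 without the first library. Without the second they were 24 and 130 of 14763. All genes past the adjusted p alone were not counted in these fits. DESeq2 with both cutoffs also called 0 of the 9, and with the adjusted p alone, a rule added after the values were seen, it called 4 (Cacna1s, Ryr1, Jph1 and Atp2a1). Among the 13972 genes with an adjusted p in DESeq2, that rule called 451 higher and 367 lower. Groups without overlap were found for 28.4% of all genes tested, against 5 of the 9 here, all 5 higher with lactation.

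**Figure D1:**
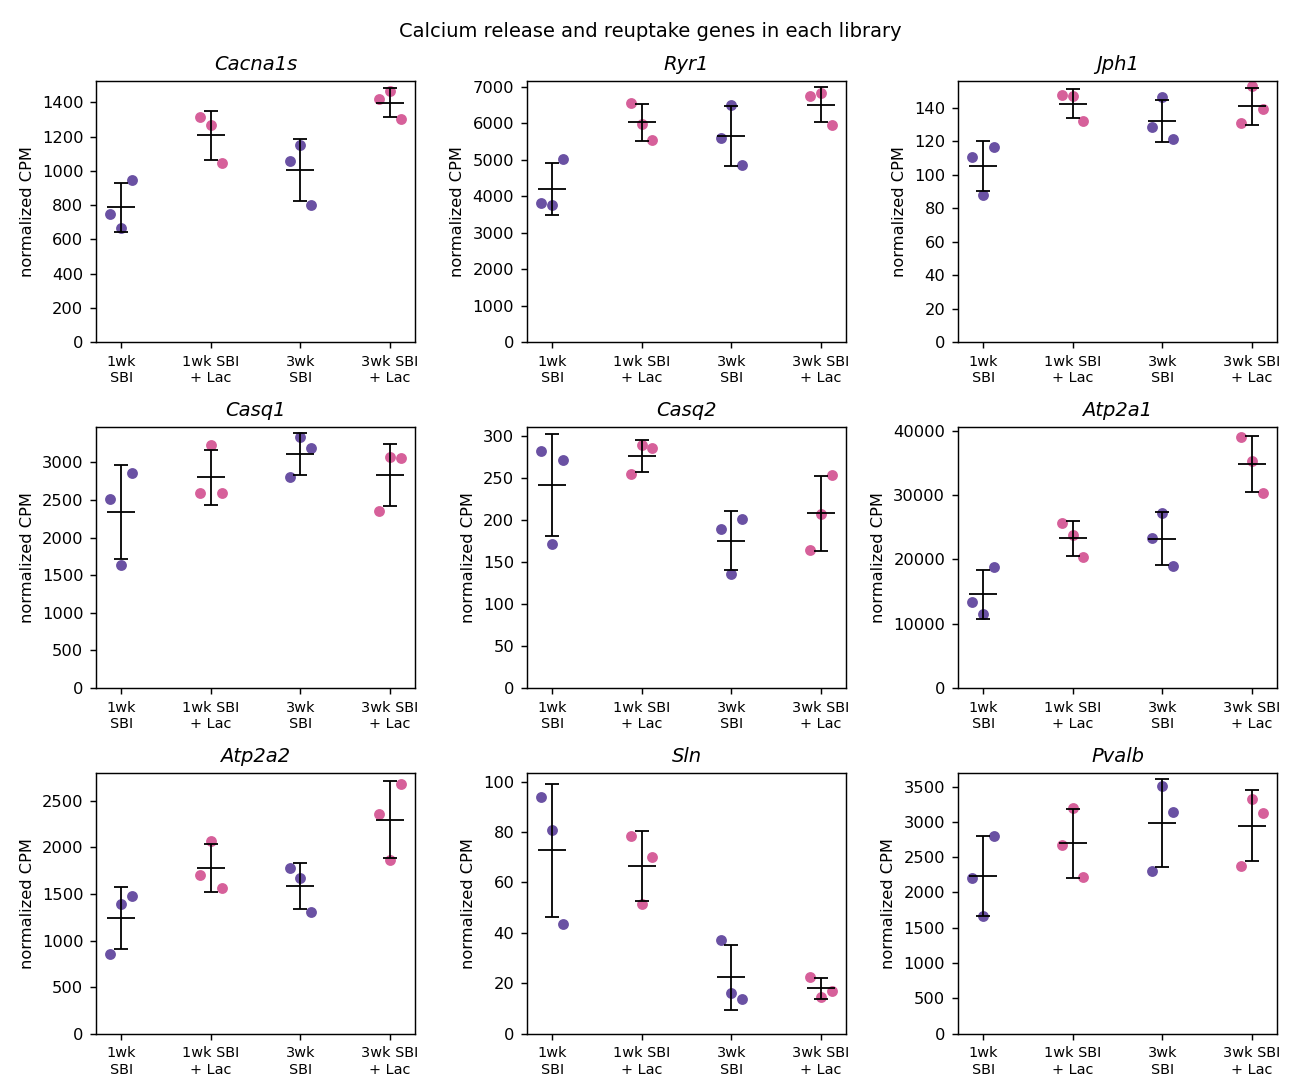
Normalized CPM (y axes, each from 0) of the 9 calcium release and reuptake genes in the 4 groups (x axes). Each point is a pool of 2 rats, purple for non-lactating and pink for lactating, and the bars give the mean and SD of 3 pools; Atp2a1 ran from 11502 to 38995, with the lactating pools above the non-lactating ones at each time point, and Sln was below 40 in every 3-week pool and above 40 in every 1-week pool.

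Among the release genes, Cacna1s (ENSRNOG00000046231) had 750.1, 664 and 944 normalized CPM in the 1wk SBI pools and 1313, 1266 and 1044 in those of 1wk SBI + Lac. The lowest lactating pool therefore lay above the highest non-lactating one, a log2 fold change of 0.62 (standard error, SE, 0.17, 95% interval 0.26 to 0.98, adjusted p = 0.0858, edgeR). Ryr1 (ENSRNOG00000020557), the release channel itself, had 3813, 3753 and 5008 in the 1wk SBI pools and 6556, 5980.0 and 5536 in 1wk SBI + Lac. Its log2 fold change was 0.52 (SE 0.18, adjusted p = 0.129, edgeR). Jph1 (ENSRNOG00000006110) had 110.3, 88.0 and 116 in the 1wk SBI pools and 148, 147 and 132 in 1wk SBI + Lac, a log2 fold change of 0.44 (SE 0.12, adjusted p = 0.0862, edgeR). In Cacna1s and Ryr1 the third non-lactating pool was the highest of its group and the third lactating pool the lowest of its own.

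Among the pumps, Atp2a1 (ENSRNOG00000047124) had 13356, 11502 and 18905 normalized CPM in the 1wk SBI pools and 25748, 23885 and 20384 in 1wk SBI + Lac. Its log2 fold change of 0.68 (SE 0.23, 95% interval 0.20 to 1.16, adjusted p = 0.128, edgeR) was the largest of the 9. Atp2a2 (ENSRNOG00000001285), the pump of slow fibers, had 857, 1398 and 1475 in the 1wk SBI pools and 1702, 2064 and 1565 in 1wk SBI + Lac, a log2 fold change of 0.52 (SE 0.21, adjusted p = 0.204, edgeR). The fast and the slow pump thus lay on the same side, with intervals that overlapped over most of their length. Sln (ENSRNOG00000009047), the inhibitor of the pumps, had 94.1, 80.8 and 43.4 in the 1wk SBI pools and 78.4, 51.3 and 70.0 in 1wk SBI + Lac, and the lactating pools fell within the range of the non-lactating ones (log2 fold change -0.13, 95% interval -0.98 to 0.72).

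The store and buffer genes lay closer between the groups. Casq1 (ENSRNOG00000006930) averaged 2338 ± 627 normalized CPM in the 1wk SBI pools and 2801 ± 369 in 1wk SBI + Lac (mean ± SD over 3 pools), a log2 fold change of 0.26 (95% interval -0.17 to 0.69). Casq2 (ENSRNOG00000016243) averaged 242 ± 60.8 and 276 ± 19.1, with a log2 fold change of 0.19 (95% interval -0.24 to 0.62). Pvalb (ENSRNOG00000006471) averaged 2227 ± 566 and 2698 ± 489.7, with a log2 fold change of 0.28 (95% interval -0.19 to 0.75). In these 3 genes the intervals included both 0 and a difference as large as that of Ryr1, so no difference between the release genes and the store genes can be read from them.

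At 3 weeks both pumps and Cacna1s were again higher in every lactating pool than in any non-lactating pool, whereas Ryr1, Jph1, Casq1, Casq2, Pvalb and Sln overlapped. None of the 9 passed both cutoffs or the adjusted p alone (edgeR), which 0.74% and 2.54% of all genes tested did. An unadjusted p under 0.05 was found for 3 of the 9 and for 3082 of the 14599 genes. DESeq2 with both cutoffs called 0 as well. Groups did not overlap for 3 of the 9 genes, against 22.3% of all genes. Atp2a1 had 23322, 27279 and 19018 normalized CPM in the 3wk SBI pools and 38995, 35328 and 30347 in 3wk SBI + Lac, a log2 fold change of 0.59 (SE 0.23, adjusted p = 0.153, edgeR). Atp2a2 had 1779, 1670.5 and 1310.0 in the 3wk SBI pools and 2357, 1864 and 2679 in 3wk SBI + Lac, a log2 fold change of 0.54 (SE 0.21, adjusted p = 0.165, edgeR). As at 1 week, the 2 pumps lay on the same side. The sums of the pan-fiber muscle genes were also apart at 3 weeks, at 92375 to 124050 normalized CPM in the 3wk SBI pools and 141080 to 151050 in 3wk SBI + Lac. Singly, 3 of these 9 genes did not overlap between the groups, beside the 22.3% of all genes. Of the 9, 8 were above 0 (median log2 fold change 0.17, 0 past the cutoffs). Of the regenerating fiber genes 8 of 9 were below 0 (median -0.53, 0 past the cutoffs), and all 10 macrophage markers were, of which Cd68 passed both cutoffs (log2 fold change -1.08, adjusted p = 0.015, edgeR). Sums over the regenerating genes ran from 402 to 1027 and from 358 to 446, and over the macrophage markers from 434 to 964 and from 405 to 655. Their part in the 3-week values was not tested beyond the rescaling below.

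Cacna1s had 1056, 1152 and 801 normalized CPM in the 3wk SBI pools and 1421, 1468 and 1306 in 3wk SBI + Lac, a log2 fold change of 0.48 (SE 0.17, adjusted p = 0.127, edgeR). Ryr1, its partner at the contact, had 5586, 6488 and 4860.2 in the 3wk SBI pools and 6735, 6822 and 5952 in 3wk SBI + Lac, so that 1 non-lactating pool lay within the lactating range (log2 fold change 0.20, 95% interval -0.17 to 0.58). Jph1 averaged 132 ± 12.8 and 141 ± 11.1 (mean ± SD over 3 pools, log2 fold change 0.09, 95% interval -0.16 to 0.35). The storage gene Casq1 averaged 3109.6 ± 276 in the 3wk SBI pools and 2829 ± 410.5 in 3wk SBI + Lac, and Casq2 averaged 175 ± 34.8 and 208 ± 44.6. Their log2 fold changes were -0.14 for Casq1 (95% interval -0.56 to 0.29) and 0.25 for Casq2 (95% interval -0.19 to 0.68). For Pvalb and Sln the log2 fold changes were -0.02 and -0.26, with intervals from -0.49 to 0.45 and from -1.18 to 0.66.

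Whether lactation acted differently at the 2 time points was tested as the difference between both effects. It passed the cutoffs for none of the 9 genes (edgeR, adjusted p = 0.999 for each, and 0 by DESeq2), and for 0.00685% of all genes with either rule, which is 1 gene. An unadjusted p under 0.05 was found for 0 of the 9 and for 645 of the 14599 genes. For Jph1, which was apart between the groups at 1 week and overlapped at 3 weeks, the difference was -0.34 on the log2 scale (95% interval -0.71 to 0.02). For Ryr1 it was -0.32 (95% interval -0.85 to 0.21) and for Atp2a1 -0.09 (95% interval -0.77 to 0.59).

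**Figure D2:**
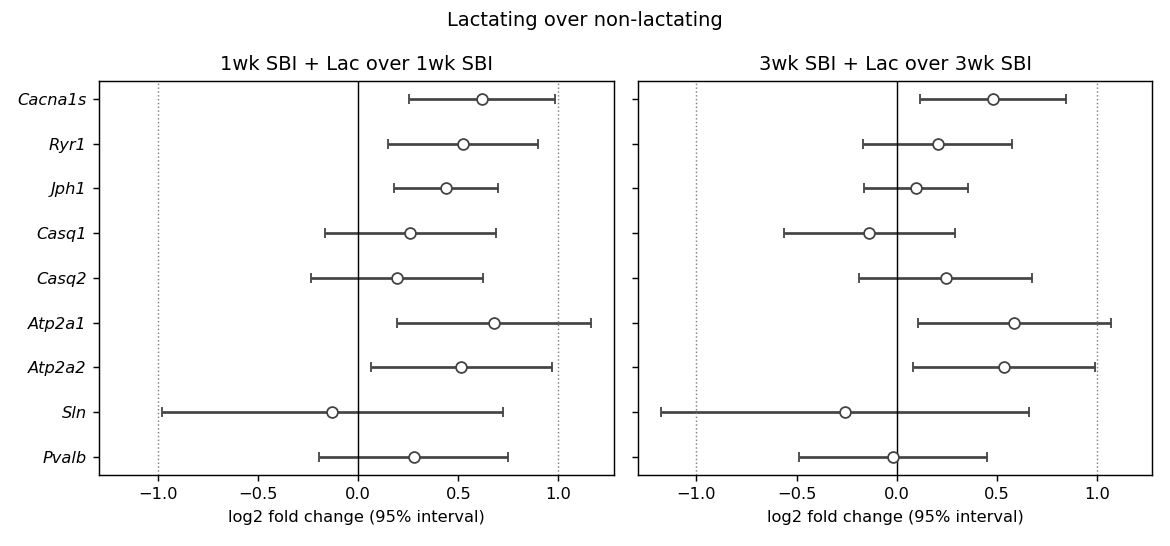
Log2 fold change of lactating over non-lactating rats (x axes) for the 9 genes (y axes) at 1 week, left, and at 3 weeks, right, from edgeR with TMM scaling. Circles are estimates, open because none passed both cutoffs, bars are 95% intervals and dotted lines mark a log2 fold change of 1 in either direction; at 1 week the intervals of Cacna1s, Ryr1, Jph1, Atp2a1 and Atp2a2 lay above 0, and at 3 weeks those of Cacna1s, Atp2a1 and Atp2a2, whereas scaling to pan-fiber muscle genes put Ryr1, Jph1 and Atp2a2 below 0 at 1 week.

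The other muscle genes lay on the same side. The 9 pan-fiber muscle genes summed to between 65388 and 101270 normalized CPM in the 1wk SBI pools and between 99882 and 117310 in 1wk SBI + Lac. All 9 had a log2 fold change above 0 at 1 week, with a median of 0.50, and 0 passed the cutoffs. The median over the calcium genes was 0.44, and over all genes tested it was -0.0038. The 9 slow fiber sarcomere genes had a median of 0.62, with 0.74 for the slow myosin Myh7 (adjusted p = 0.171, edgeR), and the 8 fast fiber sarcomere genes with a row had a median of 0.48, with 0.89 for the fast Z-disc protein Actn3 (adjusted p = 0.0816, edgeR). The 9 genes of regenerating fibers, such as embryonic myosin Myh3 and the fusion factor Mymk, went the other way, with all 9 below 0, a median of -1.22 and 0 past the cutoffs. Their sum was 2781 to 5927 normalized CPM in the 1wk SBI pools and 1398 to 1976 in 1wk SBI + Lac. Macrophage markers summed to 581 to 641 and to 381 to 534. The part of these differences in fiber and macrophage content in the values of the calcium genes was not tested beyond the rescaling that follows.

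When the libraries were scaled to equal levels of the 9 pan-fiber muscle genes instead of TMM, the median of all genes moved to -0.57 for lactation at 1 week and to -0.32 at 3 weeks, and the calcium genes moved with it. Atp2a1 then had a log2 fold change of 0.16 at 1 week (adjusted p = 0.242, edgeR) and 0.32 at 3 weeks (adjusted p = 0.135), and Cacna1s 0.08 and 0.21. At 1 week Ryr1, Jph1 and Atp2a2, above 0 with TMM, were at -0.01, -0.11 and -0.03. At 3 weeks Atp2a2 was at 0.26, and Ryr1 and Jph1 were at -0.07 and -0.19. Relative to these 9 muscle genes, 2 of the 9 genes were therefore above 0 at 1 week, Atp2a1 and Cacna1s, and 3 at 3 weeks, Atp2a1, Atp2a2 and Cacna1s, with none past the cutoffs. Casq1 was at -0.27 and -0.44 on this scale.

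**Figure D3:**
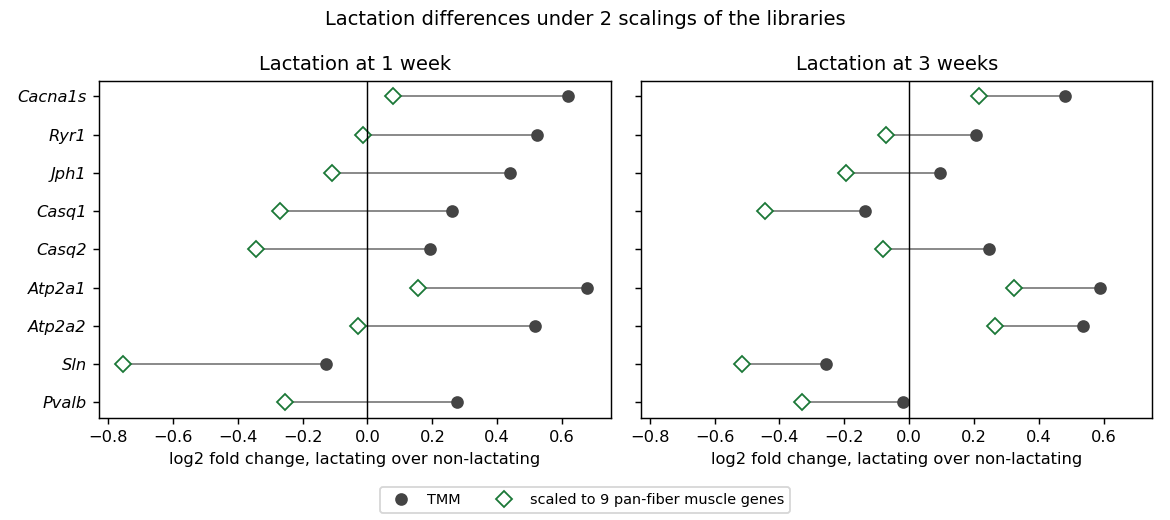
Log2 fold change of lactating over non-lactating rats (x axes) for the 9 genes (y axes) at 1 week, left, and 3 weeks, right, with TMM scaling (filled circles) and with libraries scaled to 9 pan-fiber muscle genes (open diamonds); grey lines join the values of a gene. Rescaling moved every gene to the left; at 1 week it left Atp2a1 (0.16) and Cacna1s (0.08) above 0 and took Ryr1, Jph1, Casq1, Casq2, Atp2a2 and Pvalb below 0.

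Between 1 and 3 weeks the clearest difference was in Sln, whose fitted 3-week level was 0.295 of the 1-week level in non-lactating and 0.270 of it in lactating rats. In the non-lactating rats Sln had 94.1, 80.8 and 43.4 normalized CPM at 1 week and 37.1, 16.3 and 13.7 at 3 weeks, every 3-week pool below every 1-week pool. The log2 fold change was -1.76 (SE 0.41, 95% interval -2.67 to -0.85) and passed both cutoffs (adjusted p = 0.0379, edgeR). In the lactating rats it had 78.4, 51.3 and 70.0 at 1 week and 22.5, 14.6 and 16.8 at 3 weeks, again without overlap, a log2 fold change of -1.89 (SE 0.41, 95% interval -2.80 to -0.98, adjusted p = 0.0488, edgeR). Ordered by level, 1wk SBI (72.8 ± 26.3) and 1wk SBI + Lac (66.6 ± 13.8) did not differ beyond their spread, nor did 3wk SBI (22.4 ± 12.9) and 3wk SBI + Lac (18.0 ± 4.09, mean ± SD over 3 pools).

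With TMM scaling and all 12 libraries both calls on Sln lay near the threshold (edgeR). Of the 12 fits that each left out 1 library, the call without lactation was kept in 2, those without 1wk SBI replicate 3 or 3wk SBI replicate 1, and the call with lactation in 3, those without 1wk SBI replicate 3, 3wk SBI replicate 1 or 3wk SBI replicate 3, with adjusted p-values up to 0.174 and 0.178 in the others (edgeR). The log2 fold change stayed between -2.29 and -1.48 without lactation and between -2.10 and -1.74 with it. The genes of regenerating fibers were also lower at 3 weeks, with 6 of 9 past both cutoffs without lactation and 4 of 9 with it, and sums of 402 to 1027 normalized CPM in the 3wk SBI pools and 358 to 446 in 3wk SBI + Lac. Their part in the values of Sln was not tested. Both calls were also lost without the low-count filter (adjusted p = 0.0715 and 0.0878, edgeR), the first with only the libraries compared in the model (adjusted p = 0.089) and the second with pan-fiber scaling (adjusted p = 0.0717).

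Sln was the 1 gene of the 9 to pass both cutoffs in either comparison of time, and also the 1 gene to pass the adjusted p alone with TMM scaling and all 12 libraries (edgeR). In the non-lactating rats Atp2a1 and Ryr1 passed it too without 1wk SBI replicate 3 (adjusted p = 0.0122 and 0.0382), and without 3wk SBI replicate 3 Atp2a1 passed (adjusted p = 0.0374) and Sln did not. Over all genes, 133 higher and 264 lower of 14803 passed both cutoffs without the first library. Without the second, 106 and 448 of 14763 did. All genes past the adjusted p alone were not counted in these fits. With all 12 libraries, 1.46% of all genes tested passed both cutoffs and 5.05% the adjusted p alone without lactation, and 0.774% and 2.01% with lactation. Groups did not overlap for 3 of the 9 genes without lactation (Atp2a1 and Jph1 higher and Sln lower at 3 weeks), against 21.6% of all genes, and for 3 of the 9 with lactation (Atp2a1 higher, Sln and Casq2 lower), against 28.1%. Both comparisons of time share their libraries with the comparisons of lactation.

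Atp2a1 was higher at 3 weeks in both groups of rats. Its log2 fold change was 0.67 without lactation (SE 0.23, adjusted p = 0.103, edgeR) and 0.58 with it (SE 0.23, adjusted p = 0.188, edgeR), and scaling to pan-fiber muscle genes left both above 0, at 0.19 and 0.36. By mean level the 4 groups ran from 1wk SBI (14588 ± 3852) through 3wk SBI (23206 ± 4132) and 1wk SBI + Lac (23339 ± 2723) to 3wk SBI + Lac (34890.0 ± 4340.4, mean ± SD over 3 pools). The middle groups of that order did not differ beyond their spread. For Atp2a2 the log2 fold changes with time were 0.35 and 0.37, with intervals that included 0, and rescaling took the first to -0.15.

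With TMM scaling the calsequestrins lay on opposite sides of 0 with time, and after rescaling to pan-fiber genes both lay below it. Casq2 had 282, 172 and 271 normalized CPM in the 1wk SBI pools and 189, 136 and 201 in 3wk SBI, a log2 fold change of -0.46 (SE 0.20, adjusted p = 0.202, edgeR). In the lactating rats it had 254, 289 and 286 at 1 week and 164, 207 and 253 at 3 weeks, every later pool just below every earlier one (log2 fold change -0.41, SE 0.20, adjusted p = 0.300, edgeR). Casq1 had log2 fold changes of 0.41 without lactation (95% interval -0.02 to 0.84) and 0.01 with it (95% interval -0.41 to 0.44), and rescaling took both below 0, to -0.05 and -0.22. On the pan-fiber scale the value of Casq2 without lactation was -0.92 (adjusted p = 0.0237, edgeR), under the fold cutoff.

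For the remaining genes no difference with time passed the cutoffs. Ryr1 and Cacna1s had log2 fold changes of 0.43 and 0.35 without lactation and of 0.11 and 0.21 with it, all 4 below 0 after rescaling to pan-fiber genes. Jph1 was at 0.33 without lactation, the 3-week pools all above the 1-week pools with TMM scaling and at -0.16 after rescaling, and at -0.01 with lactation. Pvalb was at 0.42 and 0.13, with intervals that included 0.

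**Figure D4:**
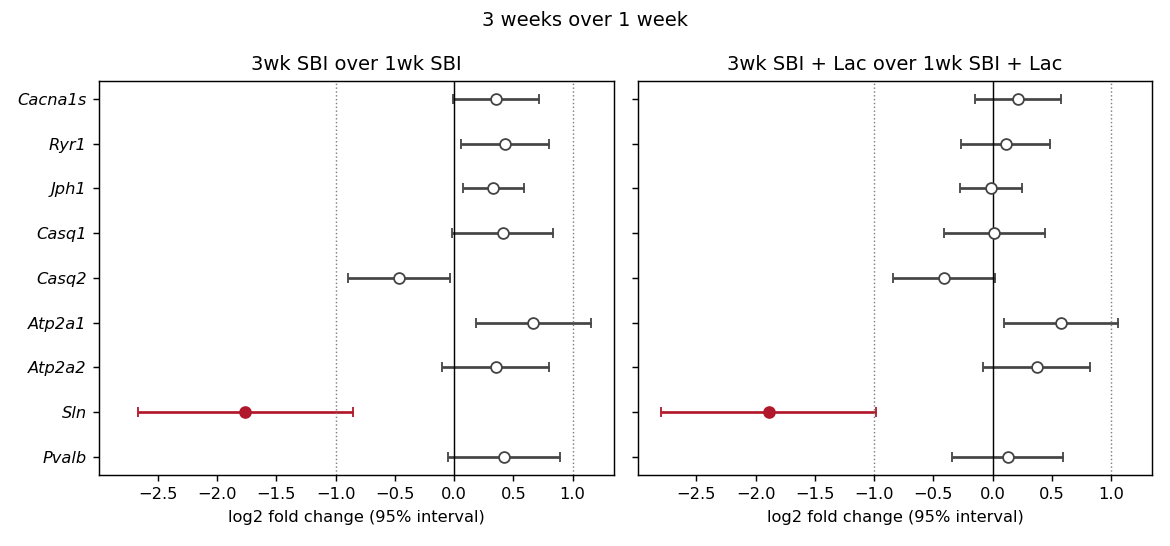
Log2 fold change of 3 weeks over 1 week (x axes) for the 9 genes (y axes) in non-lactating rats, left, and lactating rats, right, from edgeR with TMM scaling. Filled red circles passed both cutoffs, open circles did not, bars are 95% intervals and dotted lines mark a log2 fold change of 1 in either direction; Sln was at -1.76 and -1.89, and Atp2a1 at 0.67 and 0.58.

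The fast and slow isoforms were next set against each other within a library, where the scaling drops out. The ratio of Atp2a1 to Atp2a2 counts was 15.6, 8.23 and 12.8 in the 1wk SBI pools and 15.1, 11.6 and 13.0 in 1wk SBI + Lac. At 3 weeks it was 13.1, 16.3 and 14.5 in the 3wk SBI pools and 16.5, 19.0 and 11.3 in 3wk SBI + Lac. The ranges of the 4 groups overlapped one another. These ratios are of counts, not per length, and serve only to compare libraries.

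The ratio of Casq1 to Casq2 counts separated the time points. It was 8.93, 9.56 and 10.5 in the 1wk SBI pools and 10.2, 11.2 and 9.05 in 1wk SBI + Lac, against 14.9, 24.6 and 15.8 in the 3wk SBI pools and 14.4, 14.8 and 12.1 in 3wk SBI + Lac. The lowest 3-week library, at 12.1, lay above the highest 1-week library, at 11.2. Within a time point the lactating and non-lactating libraries overlapped at 1 week, while at 3 weeks the 3 lactating libraries (up to 14.8) lay just below the 3 non-lactating ones (from 14.9). The counting, which differed between the time points, could not be told apart from time here either.

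Over the 12 libraries, after the mean of each time point was subtracted, the release genes and the fast pump varied together. Pearson's r of log2 normalized CPM was 0.98 between Cacna1s and Atp2a1, 0.95 between Ryr1 and each of these, and 0.83 to 0.89 between Jph1 and the 3. Casq1 and Pvalb had an r of 0.90 with each other, and of 0.36 and 0.47 with Atp2a1. Sln had an r of -0.75 with Pvalb and of -0.23 with Atp2a1. These coefficients are descriptions over libraries that share their lactation group and scaling.

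**Figure D5:**
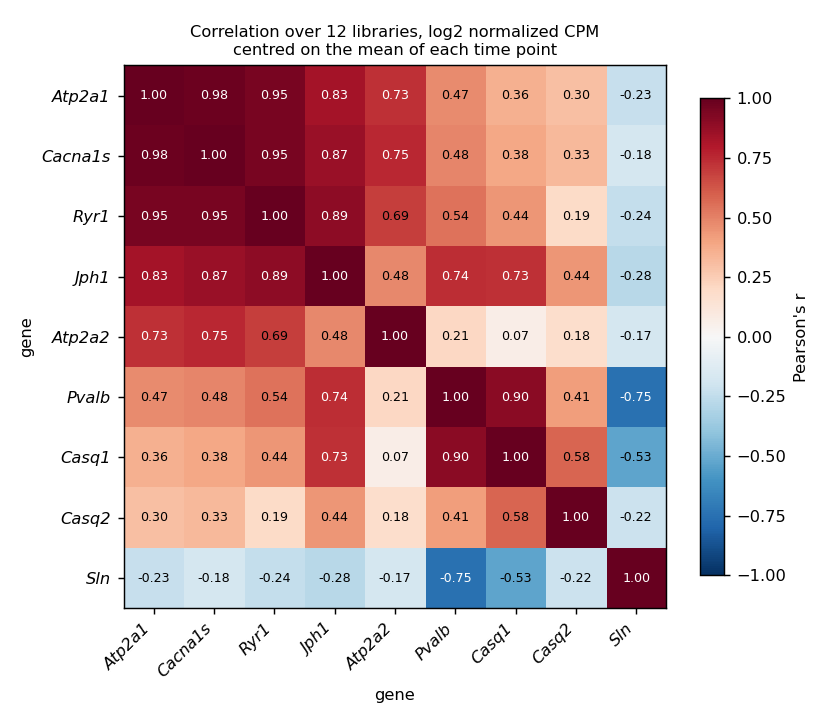
Pearson's r between each pair of the 9 genes (both axes) over 12 libraries, on log2 normalized CPM centred within each time point, from -1 in blue to 1 in red. Atp2a1, Cacna1s and Ryr1 were between 0.95 and 0.98, Pvalb with Casq1 was at 0.90, and Sln was negative with all others.

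By the same measure, over 7238 genes with a symbol and a mean of at least 10 normalized CPM, the 5 genes most like Atp2a1 were Actn3, Aldoa, Pgm1, Myoz1 and Ckm, with r from 0.986 to 0.981. Actn3 is a protein of the fast fiber Z-disc, Aldoa and Pgm1 are enzymes of sugar metabolism, Myoz1 is a Z-disc protein and Ckm is muscle creatine kinase. The 5 most like Atp2a2 were the slow myosin Myh7, Xpo4, Sgms1, Slc38a2 and the slow troponin Tnnt1, with r from 0.965 to 0.956.

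The wider machinery was taken as 40 partner genes: subunits of the calcium channel, proteins of the triad and the reticulum, exchangers and plasma membrane pumps, store-operated entry, mitochondrial uptake, IP3 receptors, and calmodulin kinase and calcineurin signaling. All 40 were tested, and 0 passed both cutoffs in any of the 5 comparisons with TMM scaling and all 12 libraries (edgeR). An unadjusted p under 0.05 was found for 14, 7, 1, 22 and 10 of the 40. Among the 14599 genes tested it was found for 2762, 3082, 645, 3098 and 2649. The order is lactation at 1 week, lactation at 3 weeks, their difference, time without lactation and time with lactation. DESeq2 with both cutoffs also called 0 in all 5. For time without lactation, however, 3 passed both with pan-fiber scaling, each lower at 3 weeks (Cacnb1, Slc8a1 and Tmem38b), and Slc8a1 passed without 3wk SBI replicate 3. Among all genes 17 higher and 723 lower of 14599 passed both with pan-fiber scaling, and 106 and 448 of 14763 without that library. For lactation at 1 week 29 were above 0 and 11 below, with a median of 0.15, and at 3 weeks 24 and 16, with a median of 0.04. Those directions held for TMM: scaled to pan-fiber genes, 2 were above 0 and 38 below at 1 week (median -0.40) and 4 above and 36 below at 3 weeks (median -0.25), beside the medians of all genes on that scale of -0.57 and -0.32. At 1 week 0 of the 40 passed the adjusted p alone (edgeR), beside 0.569% of all genes. With pan-fiber scaling 15 did, all lower. With TMM scaling 9 did without 1wk SBI replicate 3, 8 higher and 1 lower. Without 3wk SBI replicate 3, 6 did, all higher. For these 3 fits all genes past the adjusted p alone were not counted. With both cutoffs pan-fiber scaling called 7 higher and 1310 lower of 14599 genes. DESeq2 passed 7 of the 40 by the adjusted p alone, all higher, beside 451 higher and 367 lower of 13972 genes. The smallest p at 1 week belonged to Jph2, the second junctophilin, with a log2 fold change of 0.73 (adjusted p = 0.0522, edgeR), Ppp3cb, a catalytic subunit of calcineurin, with 0.43, and Nfatc1, a transcription factor that calcineurin activates, with 0.40.

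At 3 weeks Mcu, the pore of the mitochondrial calcium uniporter, was lower in every lactating pool than in any non-lactating pool, with a log2 fold change of -0.66 (SE 0.12, adjusted p = 0.011, edgeR). It passed the adjusted p alone, 1 of the 40 against 2.54% of all genes. That was lost when the first or the second lactating 3-week pool was left out, with log2 fold changes of -0.61 and -0.62 and adjusted p-values of 0.0544 and 0.0502 (edgeR). The next were Jsrp1, a protein of the triad, at 0.43 (adjusted p = 0.0891) and Ppp3cb at 0.36 (adjusted p = 0.106). The lactation effect on Mcu differed between the time points by -0.58 (SE 0.16), which did not pass (adjusted p = 0.999, edgeR).

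With time, 6 of the 40 partners passed the adjusted p alone in the non-lactating rats, against 5.05% of all genes, and 3 of the 40 in the lactating rats, against 2.01%. Neither count was stable. The 6 became 0 without 1wk SBI replicate 1, without replicate 2 of that group and, in edgeR, with only the compared libraries in the model. They became 1 without 3wk SBI replicate 2, 2 without 3wk SBI replicate 1 and 3 without 3wk SBI + Lac replicate 2 or with a replicate block. They became 15 without 1wk SBI replicate 3, 14 without 3wk SBI replicate 3 and 13 with pan-fiber scaling (all lower). DESeq2 gave 12, beside 758 higher and 583 lower of 13603 genes, and 7 with only the compared libraries. The 3 in the lactating rats became 0 with pan-fiber scaling and without 3wk SBI + Lac replicate 1 or 2. They became 1 without any of the other lactating libraries or with a replicate block, 6 without 3wk SBI replicate 3 and 7 with only the compared libraries (edgeR). DESeq2 gave 5, beside 367 higher and 497 lower of 14345 genes, and 12 with only the compared libraries. For pan-fiber scaling, the replicate block, only the compared libraries and the fits without a library, all genes past the adjusted p alone were not counted. With both cutoffs and only the compared libraries, edgeR called 24 higher and 79 lower of 14439 genes without lactation. With lactation it called 28 and 163 of 13646. DESeq2 called 71 and 215 of 13940 without lactation, and 48 and 205 of 13848 with it. The genes that follow are those of the TMM fit on all 12 libraries. Without lactation the smallest p belonged to the sodium-calcium exchanger Slc8a3, with a log2 fold change of 0.65 (adjusted p = 0.0175, edgeR), the calcineurin subunit Ppp3ca, with 0.46, and the reticulum cation channel Tmem38b, with -0.59. Camk2g and Jph2 were also above 0 and the channel subunit Cacnb1 below. With lactation Camk2d (-0.69, adjusted p = 0.017, edgeR), Mcu (-0.55, adjusted p = 0.0282) and the membrane repair protein Dysf (-0.48, adjusted p = 0.039) were lower at 3 weeks. The medians over the 40 were 0.09 without lactation and -0.01 with it, beside medians of 0.35 and 0.11 over the 9 calcium genes.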

How the data were processed

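RNA of rat pubocaudalis, with 2 rats per pool, was sequenced from stranded polyA libraries, 3 per group. The authors deposited a table of gene counts, whole counts for 1 week and estimated counts with decimals (26.6% to 44.0% of values per library) for 3 weeks, neither normalized. The estimated counts were rounded here, although whole counts had been assumed in the design. Salmon appears in the submitters' processing notes, and the genome build and annotation are not given in the sources used here. Columns were matched to samples by the labels, and 4319 rows have no gene symbol.

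Tests used edgeR 4.0.16 in R 4.3.3 (TMM, filterByExpr, robust quasi-likelihood fit over all 12 libraries, Benjamini-Hochberg adjustment over all 14599 genes). DESeq2 1.42.0, the tool of the study, with RLE and pan-fiber scaling, no filter, a replicate block, only the libraries compared and each library left out were alternatives. The tests were tested on simulated data. The calcium genes and all lists were chosen with earlier results of these data known. Named partners are those past both cutoffs or, with none, the 3 with the smallest p; Camk2g, Jph2 and Cacnb1 at the time comparison were named after their values were seen. Correlations used log2 CPM with a prior count of 2. Motifs were searched on both strands of RefSeq promoters. Replicate numbers did not pair the libraries (same-number correlations from -0.23 to -0.0046). Libraries of a group differed by more than counting noise.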

Additional observations from a re-analysis of the deposited data

How the results depend on the processing

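No calcium gene passed both cutoffs for lactation or for the difference of the lactation effects under any alternative with both cutoffs. With DESeq2 on all 12 libraries and the adjusted p alone, a rule chosen after seeing the data, 4 genes passed for lactation at 1 week (Jph1, Ryr1, Cacna1s, Atp2a1), 2 at 3 weeks (Cacna1s, Atp2a1), 3 for time without lactation (Sln, Ryr1, Atp2a1) and 2 with it (Sln, Atp2a1). Over all genes that rule called 451 higher and 367 lower of 13972 at 1 week, and 556 and 523 of 13603 at 3 weeks. For time it called 758 higher and 583 lower of 13603 without lactation, and 367 and 497 of 14345 with it. The count of 1 for time, which is Sln, fell to 0 without the low-count filter in both groups of rats (adjusted p = 0.0715 and 0.0878, edgeR), to 0 without lactation with only the libraries compared (adjusted p = 0.089), and to 0 with lactation after pan-fiber scaling (adjusted p = 0.0717). Leaving out each library gave counts of 0 to 1 for each comparison of time and 0 to 0 for the others. DESeq2 with both cutoffs and RLE scaling kept both calls on Sln.

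Scaling to pan-fiber muscle genes turned 22 of 45 log2 fold changes. For lactation at 1 week these were Atp2a2 (-0.031), Jph1 (-0.11), Pvalb (-0.25), Casq1 (-0.27), Casq2 (-0.34) and Ryr1 (-0.014), and at 3 weeks Jph1 (-0.19), Casq2 (-0.080) and Ryr1 (-0.071). For the difference of the effects they were Sln (0.24), Cacna1s (0.13) and Atp2a1 (0.17). For time without lactation they were Atp2a2 (-0.15), Cacna1s (-0.15), Casq1 (-0.046), Jph1 (-0.16), Pvalb (-0.023) and Ryr1 (-0.062), and with lactation Pvalb (-0.10), Casq1 (-0.22), Ryr1 (-0.12) and Cacna1s (-0.014). This scaling moved the median of all genes to -0.57, -0.32, 0.24, -0.50 and -0.25, and the calls for lactation at 1 week from 13 higher and 24 lower to 7 higher and 1310 lower.

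Leaving out 1 library turned the sign of 10 values near 0, whose ranges were -0.39 to 0.10 (Sln) and -0.00072 to 0.32 (Casq2) for lactation at 1 week, -0.54 to 0.28 (Sln) and -0.17 to 0.12 (Pvalb) at 3 weeks, -0.10 to 0.25 (Casq2), -0.12 to 0.23 (Atp2a2), -0.32 to 0.055 (Atp2a1) and -0.41 to 0.40 (Sln) for the difference, and -0.074 to 0.041 (Jph1) and -0.047 to 0.13 (Casq1) for time with lactation. With a replicate block the calls on all genes for lactation at 1 week went from 37 to 5 higher and 3 lower, and the calcium genes called stayed at 0 for lactation and at 1 for each comparison of time, and no library correlated best with its own number. The cause of these changes was not tested. The lowest count of any calcium gene in any library was 153, for Sln in a 3wk SBI + Lac pool.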
